A study of Homo sapiens with 8 samples.

Results

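Of the 1950 rows in the deposited gene expression table, 633 carried no gene symbol, and 190 of these had a mean expression value of at least 1 over the 8 libraries. These 190 loci were chosen by that mean alone, without regard to the direction of any difference, and are described here by reference gene type, by the genes around them and by their values. The values came from K562, a human cell line started from a patient with chronic myeloid leukemia. In 4 libraries the cells had been given an extract of Caulis Polygoni Multiflori, the stem of a climbing medicinal plant, at 80 µg/mL for 3 days. In the other 4 the cells received no extract, and the labels do not say how long they were cultured. No label ties the libraries of a group to separate cultures, so p-values capture just the variation from library to library, and this may be technical.

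Most loci without a symbol are places where an annotation project has recorded RNA that nobody has yet tied to a function. Long noncoding RNAs are transcribed like messenger RNAs but have no long reading frame. An antisense lncRNA runs along the opposite strand of another gene, and an intergenic one lies between genes. Pseudogenes are decayed or reverse-transcribed copies of genes, readthrough transcripts join the exons of neighbouring genes, and TEC is the GENCODE tag for single loci that still await experimental support. Many such loci share bases with a well-studied gene or with a repeat, so a short read from one can be counted for the other.

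The table had itself been made from these libraries. Every row in it had a deposited p-value under 0.05 and a change of at least 1.5-fold, so a call below describes the listed rows and is no independent evidence of a difference. The depth of the libraries is unknown, and the labels do not say whether the counting used strand. Without strand, reads from a locus and from its antisense or overlapping gene cannot be told apart. Of the 8 erythroid markers looked for, only the globin HBZ was listed, at 2834 to 2920 in control and 4952 to 5306 in extract libraries. The 2 listed of 6 markers of other blood cells, CD68 and CD3D, summed to 61.65 to 67.03 in control and 32.49 to 37 in extract libraries. Of 6 megakaryocyte markers ITGA2B was listed, at 2.7 to 4.44 and 1.64 to 2.53, and of 4 fibroblast and epithelial markers COL1A1, at 0.47 to 0.67 and 0.24 to 0.36. The part of these cell types in the results was not tested. In bulk RNA, fewer cells of a type and less RNA per cell cannot be told apart.

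Most of the 190 loci were low. Their median was 2.50 expression units, in a range from 1.00 to 124. In 24 of them the mean was at least 10, and in 78 it was under 2. Together they made up 8.75 to 9.74% of the summed listed values in control and 7.10 to 8.61% in extract libraries. Their annotated exons were short, with a median of 1029 bases, against 3138 bases for the 568 rows with a symbol and a mean of at least 1. Those rows were also higher, with a median of 3.50, so the comparisons with them are not matched for level. Their values also varied more between libraries of a group. The median coefficient of variation among controls was 29.2% for the loci and 14.6% for those rows with a symbol. At least 1 library was listed at 0 for 35 of the 190 loci, or 18.4%, against 3.35% of those rows.

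With the extract more of the tested loci were lower than higher. Of the 190 loci, 175 reached 1 in at least 4 of the 8 libraries and were tested with limma on log2(value + 1). The other 15 reached 1 in fewer libraries and were not tested. At an adjusted p under 0.05, 127 of the 175 (72.6%) were called, against 82.8% of all 750 tested rows. There were 50 loci (28.6%) that rose, against 26.8% of all tested rows, and 77 (44%) that fell, against 56%. The median difference was −0.41 on the log2(value + 1) scale for the loci and −0.50 for all tested rows. That scale understates changes of low rows. For 91 of the 175 loci (52%) the 4 extract libraries did not overlap the 4 control libraries, against 67.7% of all tested rows. Of the 175, 12 reached 1 in every library of 1 group and in none of the other, so they were tested only because of the group in which they were high and had to differ. All 12 were called, 5 higher and 7 lower, and all 12 are among the 91 without overlap. Of the other 163, 115 (70.6%) were called, 45 higher and 70 lower, against 81.6% of 701 rows of the table. In 79 of these 163 the groups did not overlap, against 459 of the 701 rows. The difference between these shares was not tested, and neither was the part that shorter exons and wider spread have in it.

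**Figure D1:**
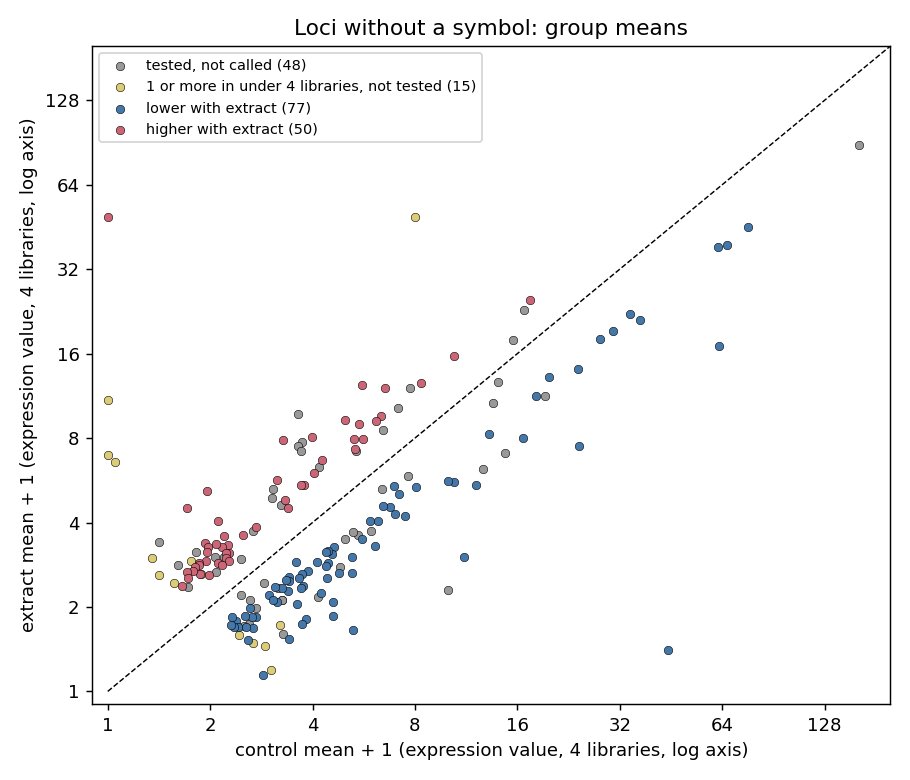
Control mean (x axis) and extract mean (y axis) of each of the 190 loci, as expression value plus 1 on log axes, with the line of equal means dashed. Colours mark the 50 loci higher and 77 lower with the extract by limma, the 48 tested and not called and the 15 that reached 1 in fewer than 4 libraries.

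How the calls split depended on the scaling. When each library was centred on the median of the tested rows, a median that was −0.27 (log2) in extract relative to control libraries, 60 loci were higher and 31 lower. Quantile normalization gave 58 higher and 37 lower. The share of higher loci among the calls was thus 39.4% as deposited, 65.9% with median centring and 61.1% with quantile normalization. In all tested rows the same share was 32.4%, 48.6% and 46.9%. The balance of rises and falls is thus tied to the scaling. Both scalings used only the 750 tested rows, which had been listed for a difference and of which 56% fell and 26.8% rose. Making such libraries alike shifts the balance towards rises by construction. Calls lost or gained with these scalings, here and below, therefore cannot tell which scaling is right. None (0) of the 127 called loci changed sign in any of the fits run, which include both scalings and those without 1 library.

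The authors' deposited table gave an adjusted p under 0.05 for 118 of the 190 loci (62.1%), against 45.9% of all 1950 rows. There, 83 loci (43.7%) were higher and 107 lower with the extract, and 43.6% of all rows were higher. In 18 loci the group means of the deposited values differed by less than 1.5-fold, although the table's own fold change was at least that large. In 1 locus they pointed the other way. ENSG00000258529, a protein-coding locus that joins exons over ALG9, was listed at 0, 0, 0.1 and 15.16 in control and at 1.53, 1.12, 0 and 4.5 in extract libraries. A single control library held nearly all of its control signal. The authors' deposited table gave this locus a log2 fold change of 2.58, while the ratio of its group means was −1.09 on the log2 scale.

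Intergenic lncRNAs were the largest class, with 43 loci. Of the 39 tested, 9 (23.1%) rose and 22 (56.4%) fell, which is close to the 26.8% and 56% of all tested rows, with a median difference of −0.57 against −0.50. The antisense lncRNAs numbered 42, and of 40 tested 11 (27.5%) rose and 16 (40%) fell (median −0.41). Of 23 pseudogenes 21 were tested, and 6 rose and 9 fell. Of 21 protein-coding loci 20 were tested, and 6 (30%) rose and 5 (25%) fell. The 15 TEC loci were all tested, with 5 higher and 8 lower, and of 13 processed transcripts 5 rose and 4 fell. Among 9 sense intronic or overlapping loci 7 were tested, with 3 in each direction, and 1 of 3 miscellaneous RNAs was tested and fell. The remaining 21 loci have no entry in GENCODE 29, the annotation used here for types and coordinates (build GRCh38). Of 19 tested among them, 5 rose and 9 fell. The classes are small, and differences between their shares or from those of the table were not tested.

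**Figure D2:**
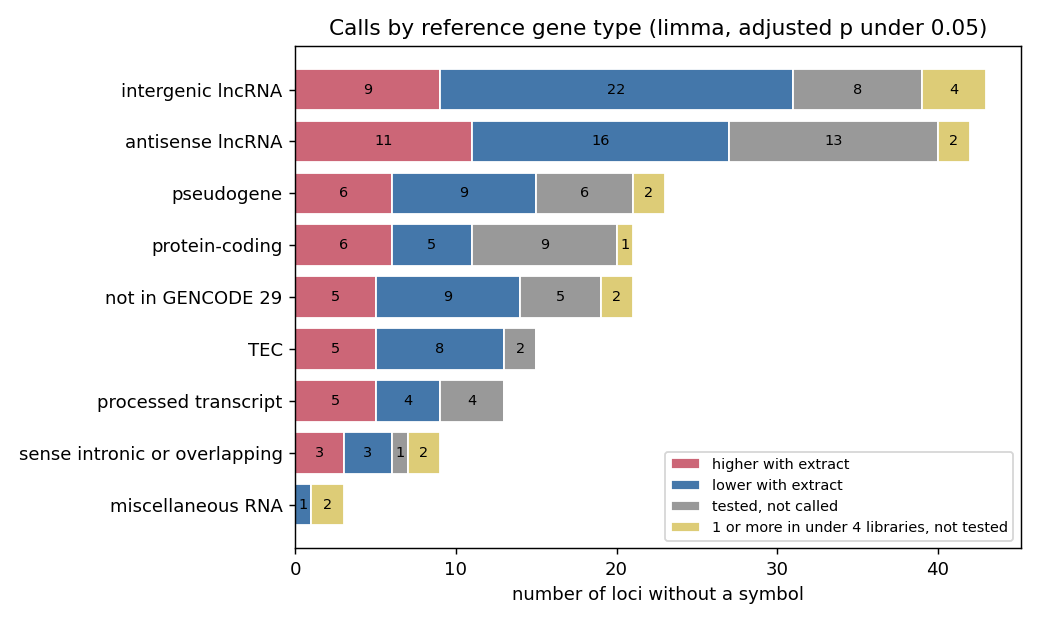
Number of loci without a symbol (x axis) in each reference gene type (y axis), split by the limma call at an adjusted p under 0.05. Intergenic lncRNAs had 22 lower and 9 higher loci, and protein-coding loci 5 lower and 6 higher.

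The loci also differed in how far their exons overlap exons of other genes at the same position. In 65 loci at least 50% of the exonic bases also lay in an exon of another gene, on either strand. Of 61 tested among these, 19 (31.1%) rose and 17 (27.9%) fell, with a median difference of 0.20. In 78 loci no exonic base was shared. Of 73 tested among these, 19 (26.03%) rose and 40 (54.8%) fell, with a median of −0.49, close to all tested rows. The difference between these counts was not tested. Only position was compared here, so loci among the 78 can still have copies elsewhere. The 3 repeat loci described below are among them, although each matches transcripts of 104 genes at 95% identity or more. Shared bases were common among protein-coding loci, where 20 of 21 had at least 50% shared, and rare among intergenic lncRNAs, with 7 of 43.

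Named noncoding genes of the table are the nearest comparison. Of 63 rows with a symbol that starts with LINC, 24 were tested, and 3 (12.5%) rose and 19 (79.2%) fell. Of 95 rows with a symbol that ends in -AS or -DT, 40 were tested, and 10 (25%) rose and 25 (62.5%) fell. Of 168 pseudogenes with a symbol, 35 were tested, and 12 (34.3%) rose and 15 (42.9%) fell. From a list of 24 well-known lncRNAs only NEAT1 and H19 were in the table. NEAT1, the scaffold RNA of nuclear paraspeckles, fell from 277 ± 7.34 to 172 ± 8.32, and the imprinted RNA H19 from 34.4 ± 2.71 to 21.9 ± 2.65 (mean ± SD, n = 4 in each group). The difference of these counts from those of the loci without a symbol was not tested.

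Among the most abundant loci were 3 TEC loci with 1 and the same sequence, an Alu repeat. Alu elements are short interspersed repeats that stand in the human genome in very many copies and are often transcribed inside introns and untranslated regions of other genes. Each locus is a single exon of 234 bases. ENSG00000279872 lies in METTL16, the gene of an RNA methyltransferase. ENSG00000282993 lies opposite to GPC5, a glypican gene. ENSG00000280096 lies in MAPRE2, the gene of a microtubule-binding protein. Since their bases are the same in the GENCODE 29 transcripts, a read cannot be placed in 1 of them.

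The same 234 bases occurred without any mismatch in annotated transcripts of 5 further genes. At 95% identity or more over at least 80% of the length they matched transcripts of 104 genes. The values of these loci are therefore shared among many places and are uncertain for each of them.

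All 3 repeat loci fell with the extract, and their libraries differed in how far. The METTL16 locus stood at 100.85, 71.43, 59.44 and 69.79 in control and 46.29, 51.24, 44.32 and 35.07 in extract libraries, with no overlap. The mean went from 75.4 ± 17.8 to 44.2 ± 6.77 (SD, n = 4 each, limma adjusted p = 0.00496). The GPC5 locus stood at 83.36, 36.41, 68.03 and 71.98 in control and at 35.91, 39.61, 41.46 and 35.48 in extract libraries. Control 3 lay among the extract libraries, and the other controls lay above them (adjusted p = 0.0237 in limma). The MAPRE2 locus stood at 60.19, 61.03, 53.13 and 69.78 in control and 33.62, 44.38, 19.02 and 52.84 in extract libraries. Here the highest extract library nearly reached the lowest control (limma adjusted p = 0.0317). With median centring the GPC5 and MAPRE2 loci were no longer called (limma adjusted p = 0.128 and 0.148), and none of the 3 was called with quantile normalization (0.387, 0.692 and 0.666). The GPC5 call was also lost without control 2, 4 or 5 or extract 1 or 4, and the MAPRE2 call without control 2, 3 or 5 or extract 1, up to limma adjusted p = 0.0567 and 0.0696. The MAPRE2 call was lost without the filter on low values as well (0.0531).

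**Figure D3:**
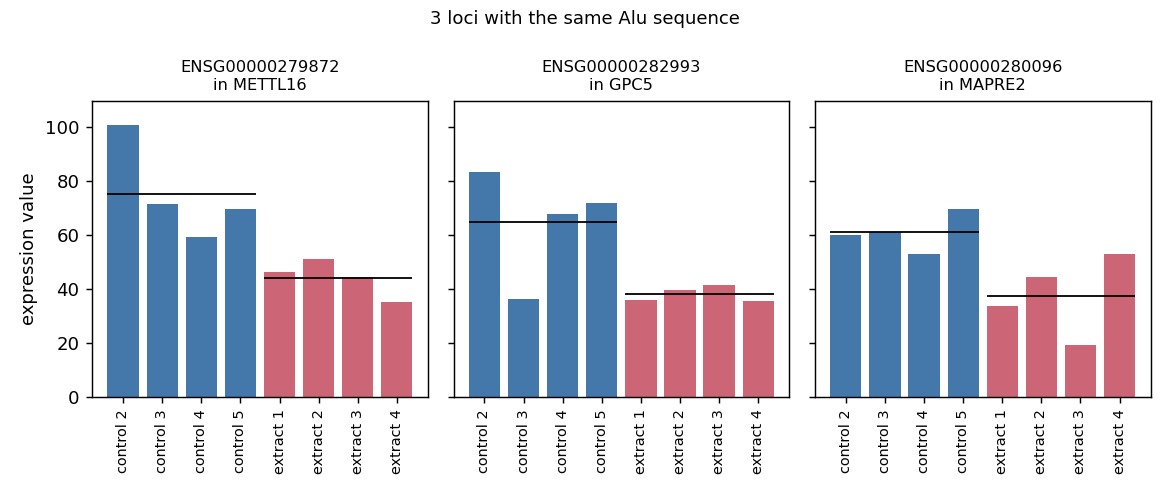
Expression value (y axis) of the 3 loci with the same Alu sequence in each of the 8 libraries (x axis, control in blue and extract in red), with group means as black lines. The METTL16 locus has no overlap between groups, while control 3 of the GPC5 locus, at 36.41, lies among the extract libraries.

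The locus with the highest mean was not called. ENSG00000274630 is an antisense lncRNA of 156 bases (chr17:41867581-41867736), and all its bases lie in exons of ACLY, which makes cytosolic acetyl-CoA from citrate. It stood at 90.98, 207, 116.76 and 228.09 in control and at 66.95, 32.38, 192.71 and 60.06 in extract libraries. Extract 3 lay between the lower and the upper pair of controls, so the groups overlapped (limma adjusted p = 0.0889). ACLY itself was not in the table and was not analysed here.

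An equally uneven but lower locus was ENSG00000273112, annotated as a readthrough from FCGR2A, which encodes an Fc receptor for IgG, into FCGR2C (chr1:161513176-161605099). Its values were 88.14, 69.31, 27.49 and 61.6 in control and 31.55, 15.52, 13.16 and 4.11 in extract libraries. Only extract 1 reached above the lowest control. It fell by 2.04 on the log2(value + 1) scale (SE 0.57, limma adjusted p = 0.0117), and 87.3% of its exonic bases were shared with other genes.

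LINC02964 (ENSG00000286122), which has a symbol in a later name table but no entry in GENCODE 29, was the most even of the abundant loci. It stood at 37.02, 35.82, 35.9 and 34.54 in control and at 19.75, 19.74, 20.56 and 20.05 in extract libraries. The groups were far apart and each was narrow. It fell from 35.8 ± 1.01 to 20.025 ± 0.385 (SD, n = 4 each), a difference of −0.81 (SE 0.04, limma adjusted p = 2.08e-06). The intergenic lncRNA ENSG00000234147 (chr6:140845958-140852924), with no gene symbol within 50000 bases, stood at 34.04, 31.23, 32.7 and 35.21 in control and 24.3, 22.47, 19.23 and 18.92 in extract libraries. Its groups did not overlap, and it fell by 0.63 (SE 0.09, limma adjusted p = 0.000391), a call lost with quantile normalization (adjusted p = 0.329).

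With an adjustment over all 60664 genes of the authors' test in place of the 750 tested rows, limma called 13 of the 175 loci (7.43%), 3 higher and 10 lower, against 22.3% of all tested rows. The family size was read from the authors' deposited p-values and adjusted p-values. They were 6 intergenic and 3 antisense lncRNAs, 2 loci outside GENCODE 29, 1 TEC locus and 1 processed transcript. In each of the 13 the groups did not overlap. So strict an adjustment favours such rows, and the same count over the other rows called with it is not given here. The lack of overlap is therefore no added support. Among the 3 higher ones are ENSG00000273230 and ENSG00000288634, which were tested only because of their extract libraries. Apart from LINC02964, ENSG00000234147 and those described further below, TBC1D22A-DT (ENSG00000260708) fell from 29.5 ± 2.02 to 18.2 ± 0.306, ENSG00000261526 beside ABHD17A from 17.2 ± 1.26 to 10.3 ± 0.778, and MGC12916 (ENSG00000266709) from 6.01 ± 0.580 to 3.30 ± 0.390 (SD, n = 4). ENSG00000250501, far from any named gene on chromosome 4, fell from 8.97 ± 1.06 to 4.61 ± 0.322, and ENSG00000274460, head to head with the respiratory chain gene UQCRC2, from 3.42 ± 0.242 to 1.54 ± 0.249. The TEC locus ENSG00000280064, opposite to RAB11FIP1, which works in endosome recycling, rose from 9.42 ± 0.267 to 14.6 ± 1.51. All its bases lie in exons on the opposite strand.

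**Figure D4:**
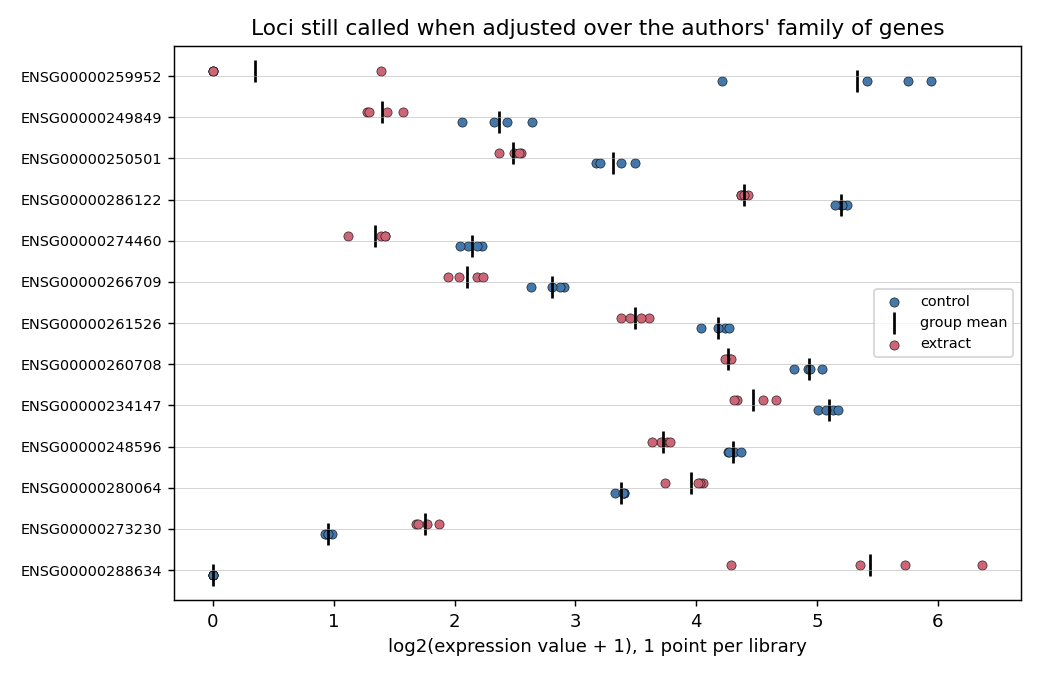
Values of the 13 loci that limma still called over 60664 genes, as log2(expression value + 1) (x axis) for each locus (y axis), with 1 point per library and group means as black ticks. Extract points lie left of control points in 10 loci and right of them in 3.

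The largest rise was a locus that was listed at 0 in every control. ENSG00000288634, described in the table only as a protein and without an entry in GENCODE 29, stood at 52.01, 40.06, 81.52 and 18.57 in extract libraries. It is 1 of the 12 loci tested only because of their high group, so its call is no support for a difference. A value of 0 in a table without counts can be a failed estimate, and no fold change is given for it. A pair of further loci were listed at 0 in all 4 controls and reached 1 in too few libraries to be tested. ENSG00000288626, described likewise and also outside GENCODE 29, stood at 0, 7.15, 3.24 and 13.41 with the extract, and the pseudogene ENSG00000250210 at 0, 26.5, 13.31 and 0. Each of these was thus at 0 in some extract libraries too. No locus (0 of 190) was at 0 in all extract libraries.

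An antisense RNA at MTA1, a subunit of a chromatin-remodelling complex, rose from low values. ENSG00000257270 (chr14:105467793-105470617) stood at 1.45, 0.42, 1.73 and 0.21 in control and 6.56, 3.16, 2.84 and 4.11 in extract libraries. All extract libraries lay above all controls, with a difference of 1.44 (SE 0.32, limma adjusted p = 0.00423). Of its exonic bases 68.1% lie in exons on the opposite strand, so its reads may be those of another gene. MTA1-DT (ENSG00000251602), which starts 81 bases from the start of MTA1 and runs away from it, rose as well, from 0.785 ± 0.412 to 1.68 ± 0.132 (SD, n = 4, limma adjusted p = 0.0102). MTA1 itself was not in the table.

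ENSG00000255089, antisense to the antiviral membrane protein gene IFITM3 (chr11:321991-322426), stood at 6.41, 0.66, 6.08 and 5.28 in control and at 9.7, 12.65, 8.35 and 14.62 in extract libraries. Control 3 was far below the other controls, and the groups did not overlap. Its difference of 1.32 (SE 0.47, limma adjusted p = 0.0312) lost its call without extract 1, 2 or 4, up to an adjusted p of 0.0712, and also with a pseudocount of 0.1 (0.0502) and without the filter on low values (0.0521).

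Further rises without overlap followed. The locus ENSG00000261067 over LAT, an adaptor of T-cell receptor signaling, shares 79.6% of its exonic bases and rose from 3.99 ± 1.82 to 8.29 ± 1.73 (SD, n = 4, limma adjusted p = 0.0151). Its call was lost with the replicate number as a block (limma adjusted p = 0.0769). ENSG00000286945, also outside GENCODE 29, rose from 5.54 ± 1.63 to 11.1 ± 1.26 (limma adjusted p = 0.00307). The most even of these was ENSG00000273230, a single-exon lncRNA 2755 bases from INTS1, which encodes a subunit of the Integrator complex. It stood at 0.91, 0.9, 0.98 and 0.94 in control and 2.65, 2.41, 2.21 and 2.25 in extract libraries. No control reached 1, so this locus too was tested only because of its extract libraries.

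The largest fall was in an antisense RNA at MAZ, the gene of a zinc-finger transcription factor. ENSG00000259952 (chr16:29806496-29807732, minus strand) stood at 60.65, 41.74, 53.11 and 17.57 in control libraries and at 0, 1.63, 0 and 0 in extract libraries. Every control was far above every extract library. The difference was −4.99 (SE 0.45, limma adjusted p = 4.58e-05), a size that depends on the pseudocount since 3 extract libraries were listed at 0. Of its exonic bases 92.5% lie in exons of other genes, and MAZ was not in the table.

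Several further lncRNAs fell by more than 1 on the log2(value + 1) scale, the first 3 of them intergenic. ENSG00000254777, 42025 bases from the chromatin remodeller gene CHD7, stood at 6.96, 12.82, 5.72 and 15.02 in control and 3.95, 1.53, 1.29 and 1.28 in extract libraries. Extract 1 was the highest of its group and still below every control (difference −1.88, SE 0.35, limma adjusted p = 0.00196). ENSG00000280164 (chr21:6721812-6725209) stood at 5.31, 4.49, 2.97 and 4.3 in control and 0, 0.79, 1.32 and 0.52 in extract libraries, again without overlap (limma adjusted p = 0.000684). ENSG00000274213, which starts 106 bases from TRIM25, a ubiquitin ligase of antiviral sensing, and runs away from it, fell from 15.6 ± 2.81 to 6.97 ± 2.94 (SD, n = 4, adjusted p = 0.00421 in limma). The antisense lncRNA ENSG00000272991, opposite to the bromodomain gene BRWD1 with all its bases in exons of other genes, stood at 2.88, 2.56, 2.79 and 3.09 in control and at 0, 1.33, 1.39 and 0.53 in extract libraries, with no overlap (limma adjusted p = 0.00496).

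A pair of near-identical lncRNAs on chromosome 5 fell together. ENSG00000249849 runs opposite to FAM153A (chr5:177682294-177713969) and ENSG00000251458 lies near FAM153B, genes that arose by duplication. The transcripts matched over 354 bases with 7 differences (98.0% identity). A stretch of 120 bases of each, from base 191 of the first transcript and base 113 of the second, holds 5 of these differences, in capitals, and shows how few positions can tell their reads apart:
ENSG00000249849: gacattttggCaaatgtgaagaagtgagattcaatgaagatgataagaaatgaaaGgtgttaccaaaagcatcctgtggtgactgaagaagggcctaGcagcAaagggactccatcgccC
ENSG00000251458: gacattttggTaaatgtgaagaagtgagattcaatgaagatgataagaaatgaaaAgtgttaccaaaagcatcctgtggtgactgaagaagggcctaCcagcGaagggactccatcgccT

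The first stood at 4.03, 4.41, 3.17 and 5.23 in control and at 1.42, 1.45, 1.98 and 1.71 in extract libraries, with no overlap (difference −0.97, SE 0.14, limma adjusted p = 0.000524). The second stood at 2.76, 1.88, 1.42 and 2.56 in control and at 1.79, 1.05, 0.45 and 1.06 in extract libraries, and extract 1 lay among the controls (limma adjusted p = 0.0316). That call was lost with median centring (0.191), quantile normalization (0.116), without the filter (0.0531), and without control 2 or 5 or extract 2, 3 or 4 (up to 0.0772). The split of reads between them is uncertain. ENSG00000248596, 11624 bases from the second, fell from 18.8 ± 0.669 to 12.2 ± 0.601 (SD, n = 4, limma adjusted p = 4.74e-05), and its groups did not overlap. Of its exonic bases 65.8% also lie in exons of other genes. For ENSG00000251458 that share is 85.0% and for ENSG00000249849 27.8%.

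In all, 21 of the 167 loci with a transcript sequence had a copy of at least 95% identity over at least 80% of their length in another gene. APPAT (ENSG00000230606), whose copy ENSG00000277701 was identical, rose from 0.810 ± 0.221 to 1.78 ± 0.205 (SD, n = 4), while the copy went from 0.307 ± 0.155 to 1.06 ± 0.374 and was not tested. CYP4F59P (ENSG00000274628), a cytochrome P450 pseudogene, is 99.9% identical to part of FAM95B1, and both were called higher by limma (adjusted p = 0.0418 and 0.0372). The CYP4F59P call was lost with a pseudocount of 0.1 (0.0547), without the filter (0.0658), and without control 3, 4 or 5 or extract 2, 3 or 4 (up to 0.1).

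Loci that start close to the start of a protein-coding gene on the other strand were counted apart, since many promoters fire in both directions. In 27 loci the start lay within 1000 bases of such a start, and none of the 27 partners was in the table. Direction was not required. Some of the loci, such as ENSG00000272449 at HES5 and RBM33-DT at RBM33, start inside the partner and run across its start. Partner genes not listed were not analysed here, so nothing can be said of them. Of the 27 loci, 24 were tested, and 8 (33.3%) rose and 10 (41.7%) fell, against 26.8% and 56% of all tested rows, a difference that was not tested. TMEM263-DT (ENSG00000260329), which starts 222 bases from TMEM263 and bears the DT of "divergent transcript" in its later symbol, stood at 2.58, 2.53, 2.46 and 2.11 in control and at 1.43, 1.62, 1.55 and 1.67 in extract libraries. All extract libraries were below all controls (difference −0.41, limma adjusted p = 0.00347), but it was not called with median centring (0.2) or quantile normalization (0.0609).

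The start region that it shares with TMEM263 is shown by the promoter sequence of TMEM263-DT from RefSeq (GRCh38, chr12:106955446-106955745, minus strand, 250 bases before to 50 after the start), 1 of 17 loci with such a window. The capitals mark its only match to GGGCGG, the core of a GC box, here on the other strand as CCGCCC. Of 35116 promoter windows of the same length 45.0% hold that motif on either strand, so the match is a description and no sign of a bound factor:
TMEM263-DT promoter: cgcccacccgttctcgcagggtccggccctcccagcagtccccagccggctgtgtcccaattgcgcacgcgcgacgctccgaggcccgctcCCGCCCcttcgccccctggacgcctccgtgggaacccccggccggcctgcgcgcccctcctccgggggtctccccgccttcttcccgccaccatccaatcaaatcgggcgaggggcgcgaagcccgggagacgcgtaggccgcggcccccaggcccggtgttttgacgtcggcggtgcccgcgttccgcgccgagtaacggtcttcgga

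Other loci of this kind moved in either direction. WAPL-DT (ENSG00000227896), 130 bases from the start of the cohesin release gene WAPL, went from 1.32 ± 0.277 to 0.840 ± 0.0735 (SD, n = 4), reached 1 in the controls only, and was not called by limma with median centring (adjusted p = 0.641) or quantile normalization (0.143). ENSG00000278922, a TEC locus 97 bases from ZNF768, rose from 4.63 ± 0.759 to 6.94 ± 0.938. ENSG00000272449, 181 bases from the start of the Notch target gene HES5, fell from 2.74 ± 0.532 to 1.38 ± 0.0918. RBM33-DT (ENSG00000216895) went from 18.3 ± 8.27 to 10.3 ± 2.45 and was not called (limma adjusted p = 0.0639), with overlapping groups.

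Of the 21 protein-coding loci, nearly all are readthroughs or overlapping variants of a named gene, and 20 share at least 50% of their exonic bases. Their values therefore rest on reads that the named gene could also take. ENSG00000249319, over the urea cycle gene ASL, stood at 3.13, 1.38, 1.81 and 2.76 in control and at 7.58, 7.06, 4.81 and 8.08 in extract libraries, with no overlap (difference 1.28, SE 0.21, limma adjusted p = 0.00104). The COG8 and PDF readthrough ENSG00000272617 stood at 2.56, 1.63, 3.25 and 4.48 in control and 7.62, 2.66, 9.36 and 8.63 in extract libraries, and extract 2 lay among the controls (limma adjusted p = 0.0363). Its call was lost without control 2, 3 or 4 or extract 1, 3 or 4 (up to 0.0886) and without the filter on low values (0.0588).

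ENSG00000276612, which overlaps GATD3B and is 99.9% identical to its copy GATD3A, rose from 5.38 ± 0.790 to 8.58 ± 1.49 (SD, n = 4). ENSG00000271254, on the unplaced scaffold KI270711.1, shares no exons there, but copies of it elsewhere were not searched for. It rose from 5.16 ± 0.324 to 8.19 ± 0.889, and ENSG00000272410 over TATDN2 from 4.33 ± 0.836 to 6.29 ± 0.461. These 3 had limma adjusted p = 0.0045, 0.000725 and 0.00845 and no overlap between groups. With the replicate number as a block ENSG00000272410 was not called (limma adjusted p = 0.0528).

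The protein-coding loci that fell were 5. ENSG00000260643, over C16orf46, stood at 11.73, 14.34, 10.24 and 8.18 in control and at 5.94, 3.25, 4.84 and 3.69 in extract libraries, with no overlap (difference −1.16, SE 0.20, limma adjusted p = 0.00125). A pair of loci with overlapping spans on chromosome 1 fell as well, ENSG00000285641 over JTB from 6.50 ± 1.08 to 3.23 ± 0.818 and ENSG00000285779 over the zinc transporter gene SLC39A1 from 1.73 ± 0.471 to 0.848 ± 0.560 (limma adjusted p = 0.00222 and 0.0462). The first shares 96.8% of its exonic bases with other genes, and whether both falls rest on the same reads was not tested. The TRIM59 and IFT80 readthrough ENSG00000248710 fell from 2.71 ± 0.918 to 1.33 ± 0.445 (limma adjusted p = 0.0186), and the LRRC8C and LRRC8D readthrough ENSG00000271949 from 3.13 ± 0.0806 to 1.89 ± 0.775 (0.0168). In the last of these extract 4 stood at 3.05, within the control range of 3.05 to 3.22, and the other extract libraries at 1.47 to 1.53. Centred on the median, ENSG00000285779, ENSG00000248710 and ENSG00000271949 were not called (limma adjusted p = 0.237, 0.115 and 0.169), nor were they with quantile normalization (0.106, 0.0604 and 0.131). That of ENSG00000285779 was further lost with a pseudocount of 0.1 (0.0758), without the filter (0.0712), and without control 2, 3 or 4 or extract 2 or 4 (up to 0.109).

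Other protein-coding loci were not called. ENSG00000282988, among the histone genes at HIST1H3D, went from 14.5 ± 3.51 to 16.9 ± 1.99 (SD, n = 4, limma adjusted p = 0.21), and passed with median centring (0.0323) and quantile normalization (0.0064). The AGGF1 and ZBED3-AS1 readthrough ENSG00000285000 went from 0.605 ± 0.466 to 1.82 ± 1.20 (0.0834 in limma, and 0.0352 with median centring), and ENSG00000267552 over ZNF607 from 1.20 ± 0.598 to 2.02 ± 0.853 (0.133, and 0.0467 with median centring). ENSG00000272916 over NDST2, which modifies heparan sulfate, went from 1.61 ± 0.437 to 1.12 ± 0.558 (SD, n = 4), and IFNAR2-IL10RB (ENSG00000249624), a readthrough of cytokine receptor genes, from 1.46 ± 0.554 to 1.21 ± 0.742. In each of these 5 the groups overlapped.

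The genes around the loci were seldom in the table. Of the 169 loci with GENCODE coordinates, 108 overlapped a gene with a symbol, 63 on the opposite and 45 on the same strand. In 131 (77.5%) such a gene overlapped or lay within 5000 bases. For 14 of the 131 that gene was itself a row of the table, and for 117 it was not analysed here. In 3 of the 14 pairs both the locus and its listed gene were called, 2 in the same and 1 in opposite directions. In 1 of the 2, ENSG00000280649 with LINC01138, the locus was tested only because of its controls and had to differ. Of all tested rows 82.8% were called, so these counts are a description only.

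YJEFN3 and the locus over it moved in opposite directions. ENSG00000258674 (chr19:19516227-19536076) shares 78.3% of its exonic bases and stood at 1.96, 1.64, 2.61 and 2.39 in control and 5.32, 4.5, 3.7 and 5.14 in extract libraries, with no overlap (limma adjusted p = 0.00103). YJEFN3 stood at 1.21, 1.42, 2.07 and 1.03 in control and 0.58, 0.46, 1.17 and 0.43 in extract libraries, and only extract 3 lay among the controls (limma adjusted p = 0.0208).

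At 2 abundant genes the overlapping locus moved the same way as the gene but was not called. HSPA1B, a stress-induced heat shock protein gene with a near-identical neighbour HSPA1A, stood at 91.39 to 98.14 in control and 187.3 to 196.01 in extract libraries. ENSG00000285565 starts inside HSPA1B and runs past its end, and all its exonic bases are shared. This locus stood at 11.59, 21.07, 16.84 and 13.48 in control and 18.76, 29.24, 20.61 and 18.64 in extract libraries. Its groups overlapped (limma adjusted p = 0.0623, and 0.0169 with median centring). The cardiac troponin gene TNNI3 stood at 50.29 to 61.21 in control and 23.66 to 28.45 in extract libraries. ENSG00000267110, all of whose exonic bases are shared, stood at 5.63, 3.24, 4.33 and 2.71 in control and 2.42, 1.92, 1.83 and 3.77 in extract libraries, and extract 4 lay among the controls (limma adjusted p = 0.0643).

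**Figure D5:**
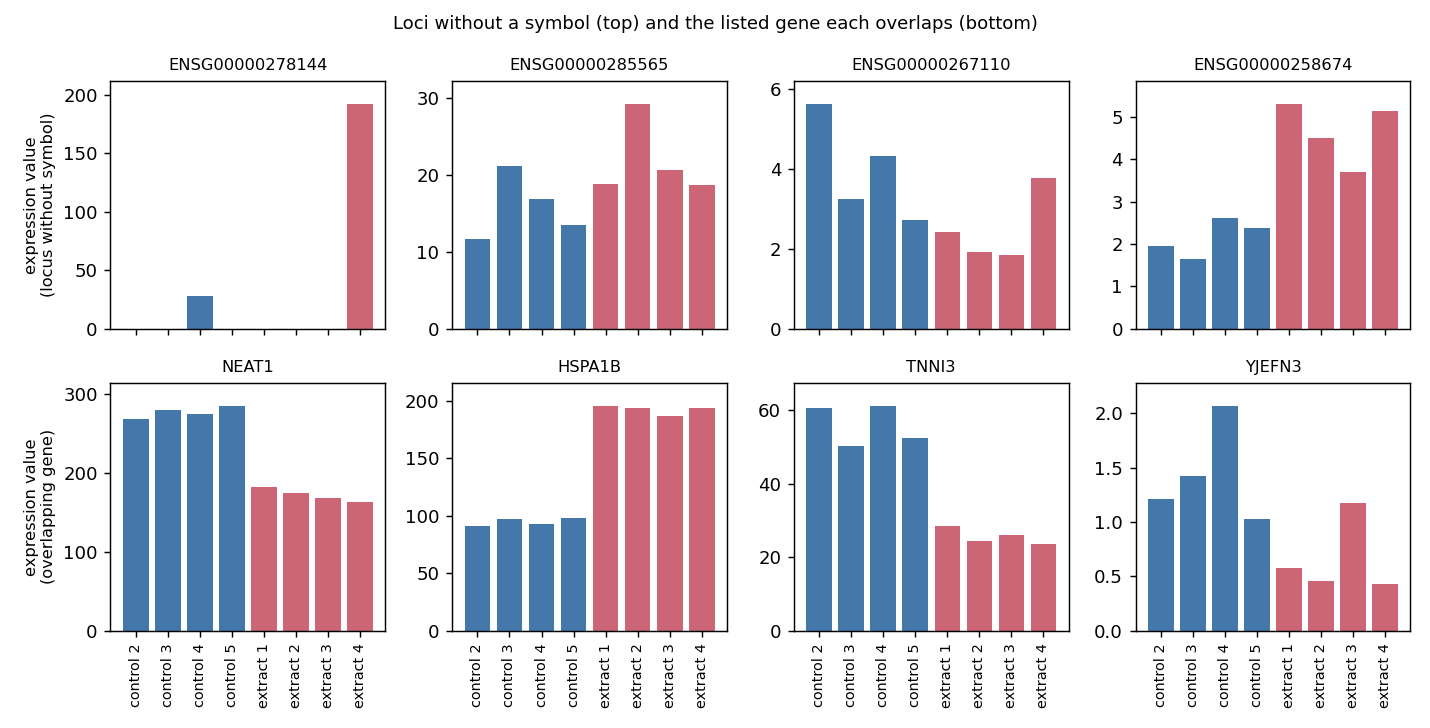
Expression value (y axis) in each of the 8 libraries (x axis, control in blue and extract in red) of 4 loci without a symbol (top) and of the listed gene each overlaps (bottom). The NEAT1 fragment is above 0 in 2 libraries, where NEAT1 itself is 274.06 and 163.18.

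A fragment of NEAT1 was listed above 0 in single libraries only. ENSG00000278144 is a miscellaneous RNA of 120 bases at chr11:65423273-65423392, plus strand, and equals bases 476 to 595 of a NEAT1 transcript of 22743 bases. Its sequence shows that none of its bases are its own:
ENSG00000278144: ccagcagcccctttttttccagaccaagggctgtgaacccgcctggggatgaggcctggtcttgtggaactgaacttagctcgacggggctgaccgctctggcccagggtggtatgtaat

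It was listed at 0, 0, 28.06 and 0 in control and at 0, 0, 0 and 192.74 in extract libraries, so that 1 library in each group held all of its signal. NEAT1 stood at 268.28, 279.99, 274.06 and 285.24 in control and at 182.44, 173.87, 167.79 and 163.18 in extract libraries, with no jump in the same libraries. The authors' deposited table gave the fragment a log2 fold change of 2.69, while it was too uneven to pass the filter here. ENSG00000276015, a miscellaneous RNA of 226 bases, lies inside the span of KCNQ1 but in none of its exons. All its bases lie in exons on the opposite strand. It was listed at 0, 0, 0 and 0.2 in control and at 0, 9.87, 8.62 and 3.86 in extract libraries and was not tested. FAUP4 (ENSG00000173727), a pseudogene 9718 bases beyond NEAT1, stood at 26.36, 30.56, 31.01 and 5.25 in control and 5.01, 2.7, 4.83 and 13.5 in extract libraries, with control 5 as low as the extract libraries (limma adjusted p = 0.036). That call was lost with median centring (0.0819), quantile normalization (0.103), without the filter (0.0576), and without control 2, 3 or 4 or extract 1, 2 or 3 (up to 0.0885).

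In 3 further pairs both were called in the same direction or only the gene was. ENSG00000280649, which reached 1 in the controls only, went from 1.36 ± 0.307 to 0.700 ± 0.179 and the lncRNA gene LINC01138 on the other strand from 6.42 ± 0.447 to 4.34 ± 0.778 (SD, n = 4). The RPL23-like pseudogene ENSG00000180211 fell from 3.79 ± 1.36 to 1.64 ± 0.887 and TUBBP9 from 2.21 ± 0.168 to 1.32 ± 0.131. Centred on the median, neither locus was called (limma adjusted p = 0.203 and 0.136). ENSG00000180211 was also not called with quantile normalization (0.108), a pseudocount of 0.1 (0.0567), no filter (0.0587), and without control 2, 4 or 5 or extract 1 or 3 (up to 0.0897). It is 95.6% identical to RPL23 over 96.9% of its length, so reads of RPL23 may be counted for it. CICP14 rose from 2.38 ± 0.245 to 5.82 ± 0.617, while the pseudogene ENSG00000229413 beside it stood at 0, 3.13, 0 and 7.35 in control and 1.56, 6.58, 9.78 and 8.06 in extract libraries and was not called (limma adjusted p = 0.11).

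In the remaining pairs 1 side or both were low or uneven. The TOMM20 pseudogene ENSG00000275400 stood at 0.65, 0, 0 and 2.21 in control and 7.43, 1.41, 2.65 and 2.56 in extract libraries (limma adjusted p = 0.0266), and its call was lost without control 3 or 4 or extract 1 (up to 0.0672). This pseudogene is 96.2% identical to TOMM20 over 100% of its length, so reads of TOMM20 may be counted for it. SAPCD2P3 beside the pseudogene was at 0.18 or less throughout. ENSG00000235288, antisense to the chemokine receptor gene ACKR2, stood at 0.47, 3.79, 0.72 and 5.88 in control and at 1.02, 0.24, 25.19 and 0.6 in extract libraries, with extract 3 alone high (limma adjusted p = 0.936). ACKR2 stood at 0.95 to 1.81 in control and 0.61 to 1.46 in extract libraries (limma adjusted p = 0.116). The EIF3E pseudogene ENSG00000277998 opposite to GRB14 stood at 10.09, 15.24, 3.99 and 17.47 in control and at 8.5, 7.15, 5.15 and 0 in extract libraries (limma adjusted p = 0.136), and GRB14 stood at 0.71 to 1.76 and 0.15 to 0.92. ENSG00000285382, over C20orf203, went from 13.1 ± 1.49 to 11.7 ± 0.979 (limma adjusted p = 0.159), while C20orf203 was at 0.08 or less. ENSG00000258311 over RDH5, and ENSG00000267073 beside ONECUT3, reached 1 in too few libraries to be tested, at 0.24 to 2.9 and 0 to 4.19 over the 8 libraries. The retinol dehydrogenase gene RDH5 stood at 0.3 to 1.85 in control and 0.74 to 2.51 in extract libraries, and ONECUT3 at 0.05 or less. TEX22, listed beside MTA1-DT, was at 0.18 or less.

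Among the pseudogenes, those of the parent genes EIF3F, RPL8 and AMPH were higher and those of PARP8, FAM9C and IBRDC3 lower. ENSG00000279081 (EIF3F) rose from 2.70 ± 0.382 to 4.42 ± 0.474 (SD, n = 4), and ENSG00000232926 (RPL8) from 0.940 ± 0.346 to 1.92 ± 0.643, a call lost without control 3 or extract 1 or 3 (up to limma adjusted p = 0.0547). The amphiphysin pseudogene ENSG00000230087, which lies opposite to the span of the fetal globin gene HBG2 in the beta-globin region, stood at 1.25, 1.1, 0.66 and 0.9 in control and at 2.11, 2.48, 2.7 and 1.75 in extract libraries. Its groups did not overlap (difference 0.72, limma adjusted p = 0.00197), it shares no exonic base, and HBG2 was not in the table.

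ENSG00000223804 (PARP8) fell from 4.23 ± 0.589 to 2.0025 ± 0.309 (SD, n = 4, limma adjusted p = 0.000695). The FAM9C pseudogene ENSG00000254198 stood at 1.76, 2.39, 1.28 and 4.17 in control and at 0.29, 0.1, 0.98 and 0.8 in extract libraries, and the IBRDC3 pseudogene ENSG00000231136 at 1.82, 1.25, 1.02 and 3.35 and at 0.57, 0, 0 and 0. Both reached 1 in the 4 controls and in no extract library, and were tested only for that reason.

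The 21 loci outside GENCODE 29 were newer entries known here only by the table's descriptions. ENSG00000287626, described as antisense to DTNBP1, stood at 1.93, 2.72, 2.54 and 3.23 in control and 1.07, 1.23, 0.85 and 1.08 in extract libraries, with no overlap (limma adjusted p = 0.000915). The PFDN5 and C12orf10 readthrough ENSG00000288663 rose from 4.30 ± 0.795 to 6.93 ± 0.989 (SD, n = 4, limma adjusted p = 0.0052). Of the 190 loci 186 were found in the later name table and 19 had gained a symbol there, among them 6 that end in -DT.

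The rule's limit of 1 did not separate distinct loci. Just above it were the IBRDC3 pseudogene, ENSG00000267655 in an intron of ATP9B and ENSG00000254721 opposite to FADD, with means of 1.00125, 1.0025 and 1.005. Just below were ENSG00000287817, ENSG00000254739 and ENSG00000259985, with means of 0.996, 0.995 and 0.994.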

How the data were processed

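RNA of 8 K562 libraries was sequenced, 4 with the extract and 4 controls. Per the submitters' processing notes HISAT2, StringTie and GRCh38 were used, with no version or role. The authors deposited 1 value per row and library, named expression values here because the sources used give no unit for them. They are not counts, and the depth is unknown. Beside them stand the deposited ratio of extract over control, that ratio on the log2 scale, and the authors' p-value with its adjusted form.

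Every row that reached 1 in 4 or more of the 8 libraries (750 of 1950) was tested with limma 3.58.1 in R 4.3.3, with trend and robust moderation, on log2(value + 1), with Benjamini-Hochberg adjustment over these rows and a threshold of 0.05. This step was tested on simulated data. Gene types, coordinates, neighbours and transcripts came from GENCODE 29 (GRCh38), copies from blastn 2.17.0, promoters from RefSeq (GRCh38). Named are the 8 loci with the highest mean, the 8 largest rises and falls without overlap, every protein-coding locus but 1, every locus with a listed gene within 5000 bases, and 3 loci on either side of the limit. The other loci named were chosen after their values were seen. The loci and the lists were chosen with earlier results of these data known. Alternatives were the pseudocount, the filter, scaling, a replicate block, the adjustment family and leaving out each library. The remaining protein-coding locus and 1 sequence are not reported here.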

Additional observations from a re-analysis of the deposited data

Results flagged for a closer look

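Over the named loci, 106 groups of 4 libraries were examined for a highest or lowest library far from the other 3, by Dixon's criterion at 95%, and 9 stood out, where chance alone gives about 5.3. The NEAT1 fragment ENSG00000278144 did so in both groups, with 28.06 in control 4 and 192.74 in extract 4 against 0 in the other libraries. ENSG00000259952, the RNA antisense to MAZ, stood at 1.63 in extract 2 against 0 in the other extract libraries. The lncRNA ENSG00000254777 stood at 3.95 in extract 1 against 1.28 to 1.53, and the IBRDC3 pseudogene ENSG00000231136 at 0.57 in extract 1 against 0. In the ALG9 locus ENSG00000258529 control 5 stood at 15.16 against 0 to 0.1. In ENSG00000271254, on a scaffold, extract 3 stood at 9.51 against 7.64 to 7.93. The LRRC8C and LRRC8D readthrough ENSG00000271949 stood at 3.05 in extract 4 against 1.47 to 1.53, and ENSG00000235288, antisense to ACKR2, at 25.19 in extract 3 against 0.24 to 1.02.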

How the results depend on the processing

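Over the authors' family of 60664 genes in place of the 750 tested rows, limma called 167 rows (45 higher, 122 lower), 13 of the 175 tested loci without a symbol and 5 of the 34 named loci that were called (2 higher, 3 lower), the adjustment being stricter by construction. A mean of at least 2 in place of 1 would leave 112 of the 190 loci. Leaving out 1 library at a time gave 538 to 584 calls in the table, 99 to 121 among the loci and 28 to 34 among the named ones. In all 8 of these fits 87 of the 127 called loci passed, 33 higher and 54 lower. The same count over all called rows of the table is not given here, so 87 says nothing particular to the loci. These 87 include all 12 loci that were tested only because of 1 group and had to differ. The library numbers 2, 3 and 4 occur in both groups, but libraries with the same number shared little of their deviations (correlations 0.075, 0.075 and 0.149 over 750 rows), although 6 of 6 libraries correlated best with their own number, which is a hint from the data and not from the design. With the replicate number as a block, without pairing for control 5 and extract 1, limma called 511 rows, 96 loci (39 higher, 57 lower) and 28 named loci. Of the 34 named calls it lost 9, and it gained 3. Lost were ENSG00000261067 (limma adjusted p = 0.0769), ENSG00000272410 (0.0528), ENSG00000272617 (0.0693), and the GPC5 and MAPRE2 repeats (0.107 and 0.123). So were ENSG00000248710 (0.0853), ENSG00000271949 (0.0678), ENSG00000180211 (0.0755) and ENSG00000280649 (0.106). WAPL-DT (0.0641), the RPL8 pseudogene (0.103) and CYP4F59P (0.0903) lost theirs too. Without depth, no limit from counting error can be given for the low loci.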
